A study of Mus musculus with 4 samples.

Results

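Reactive oxygen control in engrafted blood stem and progenitor cells was followed through 10 genes of 45232 in the count files: the transcription factors Foxo1, Foxo3 and Foxo4, the redox regulator Txnip, and the antioxidant enzymes Sod1, Sod2, Cat, Prdx1, Prdx2 and Gpx1. They were chosen by name, with earlier results of these data known, and each had a gene row. RNA was measured in GFP+ LSK cells, a fraction without lineage markers and with Kit and Sca-1 that holds mouse blood stem cells and their first progeny. The cells were sorted from mice 3 months after they had received GFP+ long-term haematopoietic stem cells (LT-HSCs). In the control group, Scr, the transplanted cells carried a scrambled control. In the other group, miR-99 KD, they carried a knockdown of the microRNA miR-99, and its mice are called the knockdown mice. Each group had 2 mice and 2 libraries, numbered 1 and 2, and the sources used here do not give the age, strain or sex of the mice or the vector.

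FoxO proteins are transcription factors that the kinase Akt keeps out of the nucleus when growth factors are present. When Akt activity is low they enter the nucleus and switch on genes of quiescence, autophagy and antioxidant defence, and mouse stem cells that lack them accumulate reactive oxygen and are lost. Superoxide dismutases turn superoxide into hydrogen peroxide, which catalase, peroxiredoxins and glutathione peroxidase then remove. Txnip binds and inhibits thioredoxin, the electron donor of the peroxiredoxins.

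The microRNAs of the miR-99 family are shown first, because the knockdown acts on them. They share the bases that choose their targets, the seed at bases 2 to 8, which is in capitals (RefSeq, GRCm38.p6, 5′ to 3′).
mmu-miR-99a-5p: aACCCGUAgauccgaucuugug
mmu-miR-99b-5p: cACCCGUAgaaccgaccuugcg
mmu-miR-100-5p: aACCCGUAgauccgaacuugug

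Letters that pair with this seed were searched in the 3′ untranslated regions of the 10 genes, in the sense strand of GENCODE M21 transcripts. The form of 6 bases was ACGGGT. It lies within both forms of 7 bases, of which one puts a T before it (TACGGGT) and the other has an A after it (ACGGGTA). Txnip held ACGGGTA, 7 bases, beginning at base 95 of a region of 1354 bases. Foxo1 held ACGGGT, 6 bases, beginning at base 5645 of 6240. The other 8 genes held none of the 3. Of 20841 genes with an untranslated region of at least 50 bases, 2.41% held at least 1 of the forms of 7 bases, 1.3% held the one found in Txnip and 7.05% held the form of 6. The stretches of 30 bases around both matches are shown with the matching letters in capitals. A match describes the letters and is not a measured target site.
Txnip: ctacagcggggaACGGGTAcaccccagccg
Foxo1: cctgctactctaACGGGTctcagggacaca

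Gene counts per library ran from 27295197 to 32350590. All values are given as CPM, counts scaled to a common library size with TMM. TMM sets a single factor per library, here 0.967 to 1.04, and does not even out differences in cell mixture. Over the 15320 genes kept by a filter on low counts, edgeR's quasi-likelihood test called 0 genes (0%) at an adjusted p of 0.05, and 2390 (15.6%) stood at an unadjusted p under 0.05. DESeq2, the other count test run, called 896 of 12646 genes with an adjusted p (7.09%). Without miR-99 KD 1 edgeR called 1013 genes, without miR-99 KD 2 it called 437, and without the filter it called 1064. No value for mature miR-99 was read, so its knockdown is unchecked here. Markers of other cells were uneven between libraries. The 16 neutrophil markers summed to 30116 CPM in miR-99 KD 1 and to 5397 to 8658 in the others, and the 13 B cell markers to 349 and 47.1 to 101. Of the 12 macrophage markers 7 were highest in Scr 1 and 5 in miR-99 KD 1. Without Lyz2, which neutrophils also express, the other 11 summed to 549 and 216 CPM in the Scr mice and 575 and 386 in the knockdown mice. The 18 erythroid markers summed to 12753 and 10481 CPM in the Scr mice and 17804 and 17538 in the knockdown mice. Of the sort markers, Kit stood at 1149 and 1280 CPM in the Scr mice and 670 and 774 in the knockdown mice, and Ly6a, which encodes Sca-1, at 46.5 and 22.8 and then 12.4 and 22.3.

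All 10 genes passed the filter, and none of them was called at an adjusted p of 0.05, by edgeR or by DESeq2. edgeR's adjusted p ran from 0.306 for Prdx2 to 0.904 for Foxo4 and Prdx1. At an unadjusted p under 0.05 edgeR counted 1 of the 10 genes, Prdx2, higher in miR-99 KD, beside 5.97% of all genes higher and 9.63% lower, and DESeq2 left Foxo4 without an adjusted p. The fitted difference was above 0 in 9 of the 10 genes, and in 7879 of the 15320 genes tested. Its median was 0.23 on the log2 scale for the 10, against 0.02 over all genes tested. Both knockdown mice stood above both Scr mice in 4 of the 10, which were Foxo3, Sod2, Prdx2 and Gpx1, and in 24.5% of all genes. None of the 10 lay below in both, against 26.0% of all genes. With libraries scaled by their totals alone the count above was 2, and without Scr 2 the median was 0.08.

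**Figure D1:**
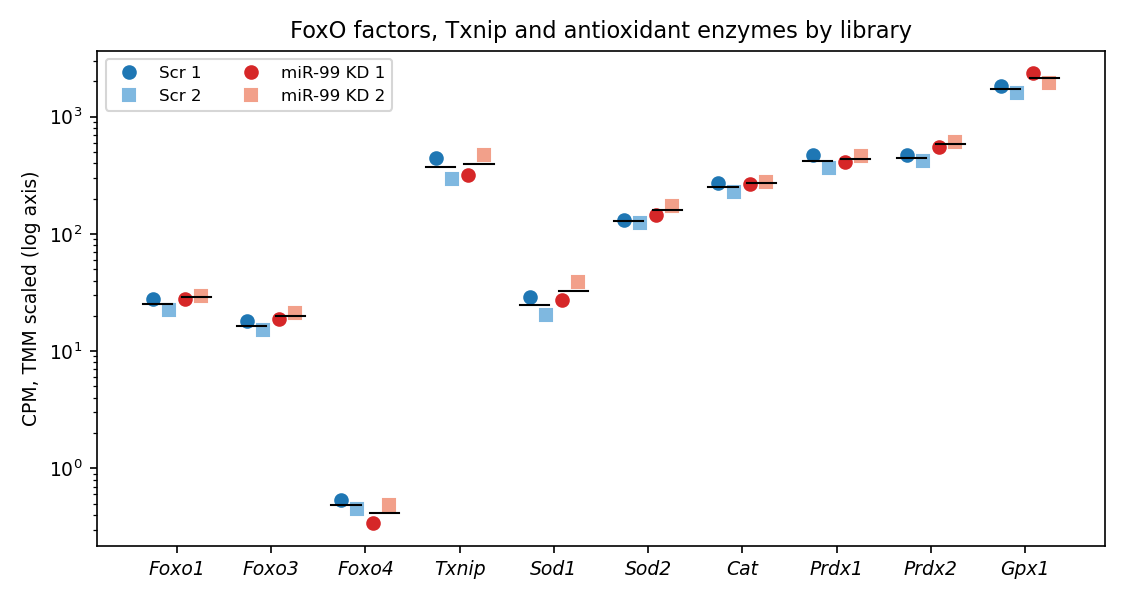
CPM on a log axis for each gene in the 4 libraries, with circles for number 1, squares for number 2 and a black bar at each group's mean of 2. Foxo3, Sod2, Prdx2 and Gpx1 have both miR-99 KD points above both Scr points, and Foxo4 is the lowest gene at 0.341 to 0.538 CPM.

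Of the FoxO factors, Foxo1 (ENSMUSG00000044167) stood at 28.0 and 22.4 CPM in the Scr mice and 27.6 and 29.7 in the knockdown mice. Scr 1 lay within the miR-99 KD range, so the groups overlapped. The group means were 25.2 ± 3.95 and 28.7 ± 1.55 CPM (SD, n = 2), and the log2 difference was 0.18 ± 0.20 (SE), with a 95% interval of -0.33 to 0.70. Foxo3 (ENSMUSG00000048756), the FoxO factor whose loss on its own depletes mouse stem cells with age, stood at 17.9 and 15.0 CPM in the Scr mice and 18.7 and 21.0 in the knockdown mice. Its groups did not overlap, but the gap between Scr 1 and miR-99 KD 1 was 0.07 on the log2 scale, less than the 0.26 between the Scr libraries. The log2 difference was 0.27 ± 0.22 (SE), with an interval of -0.28 to 0.82 and an edgeR adjusted p of 0.565.

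Foxo4 (ENSMUSG00000042903), the FoxO gene on the X chromosome, rested on 18 and 13 reads in the Scr mice and 9 and 13 in the knockdown mice. These gave 0.538 and 0.446 CPM in the Scr mice and 0.341 and 0.489 in the knockdown mice. The exact Poisson 95% interval for its lowest library, miR-99 KD 1, was 0.156 to 0.648 CPM, which holds the values of the other 3. Such intervals cover counting error only. The interval of its log2 difference, -2.21 to 1.72, is the widest of the 10, so neither a large rise nor a large fall could be detected at this depth.

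Per kilobase of merged exons, the FoxO factors kept nearly the same proportions in every library. Foxo1 made up 54.1% to 56.2% of their summed CPM per kilobase, Foxo3 41.1% to 43.7% and Foxo4 1.70% to 2.73%. The Foxo3 share was 41.1% and 42.1% in the Scr mice and 43.0% and 43.7% in the knockdown mice. At 3.11 and 2.40 CPM per kilobase on average, the ranges of Foxo1 and Foxo3 over the 4 libraries overlapped, at 2.59 to 3.43 and 1.98 to 2.77.

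Txnip (ENSMUSG00000038393) stood at 447 and 294 CPM in the Scr mice and 320 and 471 in the knockdown mice. Each group had 1 high and 1 low library, and the groups covered nearly the same range. Their means were 370 ± 108 and 395 ± 107 CPM (SD, n = 2). The log2 difference was 0.09 ± 0.28 (SE), with an interval of -0.62 to 0.81 and an edgeR adjusted p of 0.899. Libraries of the same group differed by 0.61 on the log2 scale in Scr and by 0.56 in miR-99 KD, where counting error alone gives a standard error of 0.020 for each. The fitted difference turned to -0.20 without Scr 2 and -0.21 without miR-99 KD 2. Txnip, the gene with the 7-base match to the miR-99 seed, thus had a fitted direction that turned with 1 library.

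The antisense gene Gm15441 runs across Txnip on the other strand, and 18.4% of the 50-base windows of the longest Txnip coding transcript are shared with it. The strand setting of the counts is unknown, so reads from the shared stretch cannot be told apart. The Gm15441 row itself stood at 0.602 to 0.867 CPM.

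Promoter windows, from 250 bases before to 50 after the start of the gene, were found in RefSeq (GRCm38.p6) for 9 of the 10 genes. They were searched on both strands for the FoxO site GTAAACA, the antioxidant response element TGACNNNGC bound by Nrf2, and the E-box CACGTG. The FoxO site was in 1 of the 9, Txnip, and in 3.65% of all 32851 windows. The antioxidant response element was in 2, Prdx1 and Sod1, and in 12.4% of all windows. The E-box was in none of the 9 and in 7.15% of all. The Txnip window is shown because Txnip is the 1 gene of the set with a match to both a FoxO site and the miR-99 seed, and the Prdx1 window for comparison as one with the element of Nrf2. The matched letters, on the minus strand in Prdx1, are in capitals, and begin 121 bases before the start in Txnip and 133 in Prdx1. The windows are chr3:96557707-96558006 and chr4:116685349-116685648, both on the plus strand.
Txnip: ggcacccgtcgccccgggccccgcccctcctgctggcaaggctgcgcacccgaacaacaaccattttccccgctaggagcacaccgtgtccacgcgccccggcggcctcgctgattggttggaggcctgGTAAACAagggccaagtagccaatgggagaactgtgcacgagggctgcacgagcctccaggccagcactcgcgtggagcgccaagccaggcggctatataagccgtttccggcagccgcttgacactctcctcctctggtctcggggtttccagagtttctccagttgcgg
Prdx1: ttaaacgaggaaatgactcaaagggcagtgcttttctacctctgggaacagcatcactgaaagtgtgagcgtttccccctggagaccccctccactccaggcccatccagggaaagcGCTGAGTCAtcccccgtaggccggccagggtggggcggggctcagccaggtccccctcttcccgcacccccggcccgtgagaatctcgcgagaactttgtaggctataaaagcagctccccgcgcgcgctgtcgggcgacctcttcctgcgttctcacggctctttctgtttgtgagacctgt

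Of the superoxide dismutases, Sod2 (ENSMUSG00000006818), the manganese enzyme of mitochondria, stood at 132 and 123 CPM in the Scr mice and 146 and 173 in the knockdown mice. Here the knockdown mice were both above the Scr mice. The means were 128 ± 6.90 and 159 ± 18.7 CPM (SD, n = 2) and the log2 difference was 0.32 ± 0.15 (SE), with an interval of -0.05 to 0.69 and an edgeR adjusted p of 0.363. Sod1 (ENSMUSG00000022982), the copper and zinc enzyme of the cytosol, stood at 29.0 and 20.3 CPM in the Scr mice and 27.1 and 38.6 in the knockdown mice. The libraries of each group lay far apart, with a 1.90-fold range over the 4, the widest of the set. Its log2 difference, the largest of the 10 at 0.41 ± 0.28 (SE), had an interval of -0.30 to 1.13.

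Sod1 and Sod2 changed places in the order of levels with the gene model. Per kilobase of merged exons Sod2 stood at 14.3 CPM and Sod1 at 7.24. The merged length of Sod1, 3970 bases, comes from a form that retains an intron, and its coding transcript has 641 bases. Per kilobase of the longest coding transcript, a length chosen after seeing the data, Sod1 stood at 44.8 CPM and Sod2 at 24.5. The processed pseudogene Gm8566 shares 23.1% of the 50-base windows of the Sod1 coding transcript, and reads that align to both are not counted for either. Gm8566 had 3.68 to 5.91 CPM.

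Of the enzymes that remove hydrogen peroxide, Gpx1, Prdx2 and Prdx1 were the 3 highest genes of the set per kilobase, and Cat stood below Txnip. Gpx1 (ENSMUSG00000063856), a selenium enzyme that uses glutathione, led at 1093 to 1625 CPM per kilobase of merged exons, and the next gene, Prdx2, had 137 to 199. By that length the ranges of Prdx2, Prdx1, Txnip and Cat each overlapped with the next in that order. Per kilobase of the longest coding transcript Prdx2, at 258 to 377 CPM, did not overlap with Prdx1, at 159 to 206. Gpx1 made up 74.4% to 79.5% of the summed CPM per kilobase of the 4 peroxide enzymes.

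Prdx2 (ENSMUSG00000005161), a peroxiredoxin especially abundant in red cells, stood at 474 and 416 CPM in the Scr mice and 553 and 608 in the knockdown mice. Both miR-99 KD libraries were higher than both Scr libraries, and the smallest of the gaps between them was 0.22 on the log2 scale. The means were 445 ± 40.8 and 581 ± 38.9 CPM (SD, n = 2), a log2 difference of 0.38 ± 0.14 (SE) with an interval of 0.02 to 0.75. Its edgeR p was 0.0418 before adjustment and 0.306 after it, and DESeq2 gave an adjusted p of 0.117. It ranked 2088 among the 15320 genes by edgeR p, and its unadjusted p passed 0.05 in some settings and not in others, such as scaling by totals alone. The fitted difference was 0.28 to 0.45 over all alternatives.

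Of the 18 erythroid markers 12 lay higher in both miR-99 KD libraries, as Prdx2 did, and none lower, beside 24.5% and 26.0% of all genes. In the other 6, Hba-a1, Hba-a2, Hbb-bs, Hbb-bt, Alas2 and Slc4a1, the groups overlapped. Hbb-bs, for example, stood at 1992 and 468 CPM in the Scr mice and 2379 and 707 in the knockdown mice. The median log2 difference of the 18 was 0.51. Klf1, Gata1 and the other markers of that list were present in all libraries, and their part in the Prdx2 values was not tested. In bulk RNA, more cells of a type and more RNA per cell cannot be told apart. The processed pseudogene Tdpx-ps1, which resembles Prdx2, stood at 21.1 and 20.4 CPM in the Scr mice and 26.7 and 27.8 in the knockdown mice. The end of Prdx2 also overlaps Junb on the opposite strand, and Junb went the other way, at 385 and 470 CPM in the Scr mice and 299 and 250 in the knockdown mice. Together 23.8% of the 50-base windows of the Prdx2 transcript are shared with other genes.

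The 5 tested genes whose deviations over the 4 libraries came closest to those of Prdx2 were Mrps11, Mrps15, Ube2a, Gm6419 and Lrch3. Their root mean square difference from Prdx2 was 0.00695 to 0.0129 on the log2 CPM scale. Mrps11 and Mrps15 encode proteins of the mitochondrial ribosome and Ube2a a ubiquitin-conjugating enzyme. Over 4 libraries such likeness is a description of the pattern and no more.

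Gpx1 stood at 1841 and 1575 CPM in the Scr mice and 2342 and 1918 in the knockdown mice. The groups did not overlap, but miR-99 KD 2 lay 0.06 above Scr 1 on the log2 scale, less than the 0.22 between the Scr libraries. The log2 difference was 0.32 ± 0.17 (SE), with an interval of -0.11 to 0.74 and an edgeR adjusted p of 0.408. Gpx1 was the 1 gene of the set that was highest in miR-99 KD 1, the library in which the summed neutrophil and B cell markers were highest; their part in its level was not tested. Without that library its log2 difference was 0.17 and without miR-99 KD 2 it was 0.46.

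Cat (ENSMUSG00000027187), catalase, varied least, with a 1.23-fold range over the 4 libraries. It stood at 272 and 226 CPM in the Scr mice and 266 and 277 in the knockdown mice, with Scr 1 between the knockdown mice. Its log2 difference was 0.13 ± 0.15 (SE), with an interval of -0.25 to 0.51. Prdx1 (ENSMUSG00000028691), a peroxiredoxin of the cytosol, stood at 472 and 366 CPM in the Scr mice and 410 and 461 in the knockdown mice. Both miR-99 KD libraries lay inside the Scr range, and the log2 difference was 0.06 ± 0.18 (SE) with an interval of -0.39 to 0.50. Its sign was negative when libraries were scaled by totals alone, at -0.03, without Scr 2, at -0.13, and without miR-99 KD 2, at -0.03. That of Cat was -0.02 without Scr 2. These intervals leave a change of more than 1 on the log2 scale, in either direction, outside for all of the 10 genes but Foxo4 and Sod1.

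**Figure D2:**
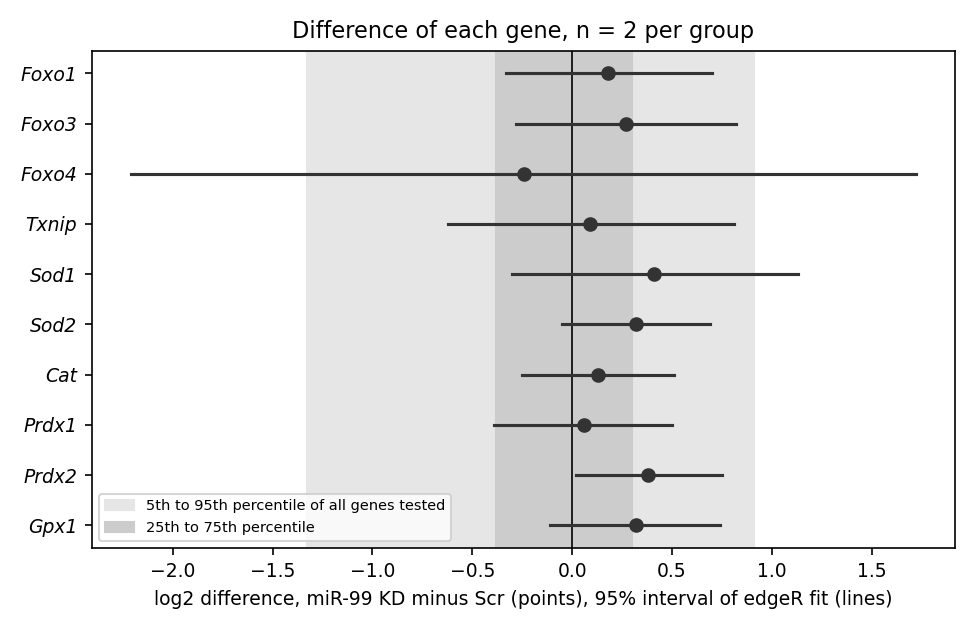
Log2 difference between miR-99 KD and Scr for each gene (points) with the 95% interval of the edgeR fit (lines), over grey bands that mark the 5th to 95th and 25th to 75th percentiles of all genes tested. Prdx2 is the 1 gene whose interval, 0.02 to 0.75, leaves out 0 before any adjustment for the number of genes, and Foxo4 has the widest interval.

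Scr 2 was the lowest library in 9 of the 10 genes, Foxo4 being the exception, and was lowest in 25.8% of all genes tested. The highest library was miR-99 KD 2 in 7 of the 10, and in 32.5% of all genes. Summed, the 10 genes made up 0.313% of the gene counts of Scr 2 and 0.384% to 0.397% of those of the other 3 libraries. Mitochondrial genome transcripts, which can follow RNA quality, were also lowest in Scr 2, at 0.357% of gene counts against 0.729% in the next lowest. Their part in the low values of Scr 2 was not tested. Without Scr 1, which leaves Scr 2 as the single control, that library lay below both miR-99 KD libraries in 9 of the 10 genes. Of all genes 71.7% did not overlap in that setting, counting both directions. Without Scr 2, Scr 1 lay below both in 4 and above both in 3, beside 68.2% of all genes that did not overlap in either direction.

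**Figure D3:**
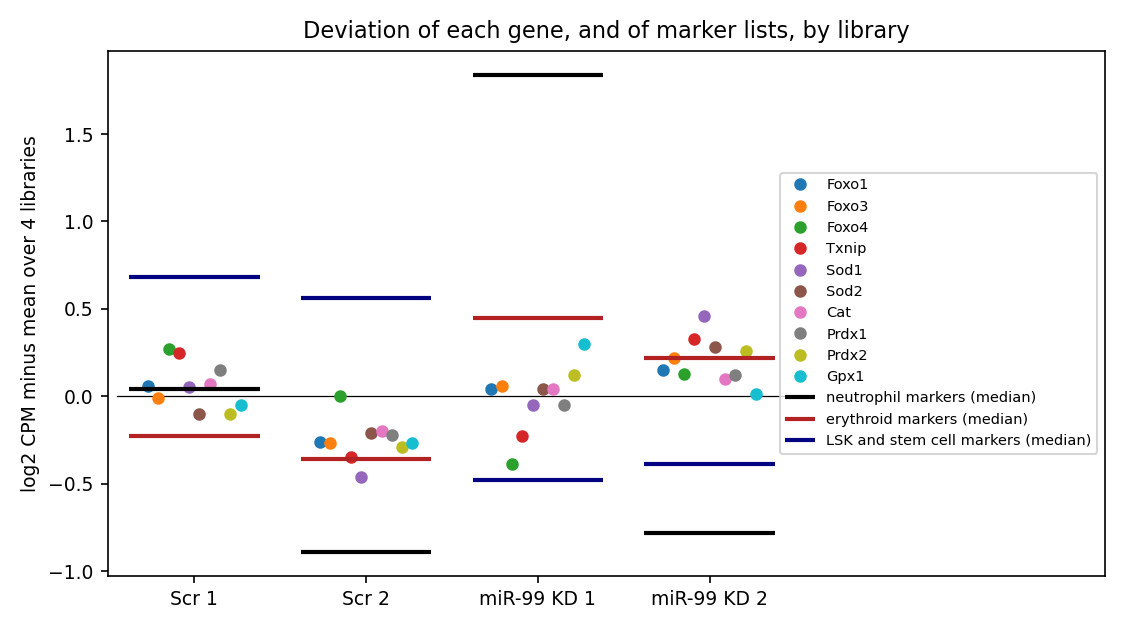
Log2 CPM of each gene minus its mean over the 4 libraries (points), with the median of the same measure over neutrophil, erythroid and LSK and stem cell markers (bars). The points of Scr 2 lie at or below 0 and those of miR-99 KD 2 above it, while the neutrophil bar stands at 1.84 in miR-99 KD 1 and the stem cell bar is above 0 in both Scr libraries.

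Other antioxidant enzymes were read from a list of 30 genes, of which 29 were tested and Sod3, the extracellular dismutase, was too low. edgeR called 0 of them, and at an unadjusted p under 0.05 it counted 2 higher and 1 lower, where all genes gave 5.97% and 9.63%. The knockdown mice were both above the Scr mice in 10 genes and both below in 7, beside 24.5% and 26.0% of all genes, and the median log2 difference was 0.22. Without miR-99 KD 1 the median was -0.11, with more genes below. With either knockdown library left out edgeR called genes of the list, as it did over all genes. Srxn1, sulfiredoxin, which repairs over-oxidised peroxiredoxins, stood at 28.3 and 23.7 CPM in the Scr mice and 14.6 and 13.6 in the knockdown mice, a log2 difference of -0.88 ± 0.21 (SE) with an adjusted p of 0.227 by edgeR and 0.02 by DESeq2. Prdx3, the mitochondrial peroxiredoxin, stood at 267 and 232 CPM in the Scr mice and 315 and 441 in the knockdown mice. Glrx5, a glutaredoxin of iron-sulfur cluster assembly in mitochondria, stood at 259 and 277 and then 364 and 352. Gclm, the modifier subunit of glutathione synthesis, stood at 514 and 454 and then 577 and 701. Thus of these 4 genes, those nearest the threshold, Srxn1 was lower in both miR-99 KD libraries and the other 3 were higher.

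The list of 12 genes of the Nrf2 pathway, some of them also in the list above, had a median of 0.07, which turned to -0.09 if Scr 2 was left out and to -0.02 if miR-99 KD 1 was. Nfe2l2, which encodes Nrf2 itself, stood at 195 and 208 CPM in the Scr mice and 306 and 325 in the knockdown mice, a log2 difference of 0.65 ± 0.13 (SE) with an adjusted p of 0.213 by edgeR and 0.000753 by DESeq2. Without the filter on low counts the edgeR value was 0.0247. Keap1, which holds Nrf2 inactive, overlapped between groups at 71.5 and 96.7 and then 72.1 and 59.5 CPM. Hmox1, also of this list, overlapped at 177 and 44.5 CPM in the Scr mice and 171 and 142 in the knockdown mice. Its log2 difference by DESeq2 was 0.51 with all 4 libraries and 1.80 without Scr 1. Txnrd1, thioredoxin reductase and a known Nrf2 target, stood at 240 and 233 CPM in the Scr mice and 205 and 168 in the knockdown mice. DESeq2 called 1 gene of the list higher, Nfe2l2, and 1 lower, Srxn1, beside 2.04% and 5.05% of all genes. It kept Nfe2l2 when either knockdown mouse was left out, lost it without either Scr library, and lost Srxn1 in all 4.

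Of 23 FoxO regulators, edgeR called 0, with 1 higher and 2 lower at an unadjusted p under 0.05, beside 5.97% and 9.63% of all genes, and a median of 0.15. Leaving out Scr 1 gave a median of 0.07, and leaving out miR-99 KD 2 gave 0.03. Without the filter on low counts edgeR called 2 of the 23, Sirt3 and Akt2. It then called 1064 of all genes with a count, of which there were at least 23052. It also called genes of the list without miR-99 KD 1, as it did over all genes. Sirt3, a mitochondrial deacetylase that acts on Sod2 and Foxo3, stood at 69.7 and 104 CPM in the Scr mice and 33.6 and 30.9 in the knockdown mice. Both miR-99 KD libraries were under the lower Scr library, and the log2 difference was -1.43 ± 0.24 (SE), with an adjusted p of 0.197 by edgeR and 2.07e-05 by DESeq2. DESeq2 also called it without Scr 1, miR-99 KD 1 or miR-99 KD 2, but not without Scr 2. Akt2, a kinase that holds FoxO proteins in the cytoplasm, stood at 59.3 and 71.3 CPM in the Scr mice and 42.6 and 32.5 in the knockdown mice, with an adjusted p of 0.232 by edgeR and 0.0274 by DESeq2, which called it without miR-99 KD 1 but not without any of the other 3. Skp2, a ubiquitin ligase subunit that marks Foxo1 for breakdown, stood at 54.7 and 70.4 and then 89.9 and 102 CPM. Ep300, an acetyltransferase, stood at 86.9 and 89.8 and then 104 and 122.

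Of 26 FoxO target genes, both knockdown mice were below both Scr mice in 12 and above in 2, against 26.0% and 24.5% of all genes, and the median log2 difference was -0.21. edgeR called 0, and at an unadjusted p under 0.05 it counted 7 lower and 1 higher, beside 9.63% and 5.97% of all genes. Without the filter on low counts edgeR called 6 of the 26, among them Ccng2, Gabarapl1, Fbxo32 and Sesn1. It then called 1064 of all genes with a count, of which there were at least 23052. Without miR-99 KD 1 the median was -0.57, and without Scr 1 it was -0.25. Fewer of the 26 were lower at an unadjusted p under 0.05 when Scr 1 or Scr 2 was left out, and fewer of all genes stood under it. More of the 26 were lower at that p without miR-99 KD 1. With either knockdown library left out edgeR called genes of the list, as it did over all genes. DESeq2 called 4 lower and 1 higher, beside 5.05% and 2.04% of all genes. The 4 were Gabarapl1, Fbxo32, Ccng2 and Sesn1, and the other was Il7r, the interleukin receptor of lymphoid precursors, which is also a B cell marker and stood at 11.4 CPM in miR-99 KD 1 and at 0.388 to 2.67 in the others. These DESeq2 calls did not hold when Scr 1 or Scr 2 was left out. How many calls over all genes were lost with them is not given here. The loss is therefore not read as particular to the list.

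Gabarapl1, a protein of autophagosome membranes, stood at 105 and 108 CPM in the Scr mice and 71.9 and 59.6 in the knockdown mice, a log2 difference of -0.70 ± 0.15 (SE). Fbxo32, the ubiquitin ligase subunit atrogin-1, stood at 10.1 and 13.6 and then 3.75 and 5.27 CPM. Ccng2, a cyclin linked to cell cycle arrest, stood at 96.3 and 118 and then 69.8 and 55.1. Sesn1, a stress-induced inhibitor of mTORC1, stood at 132 and 169 and then 102 and 94.5. In each of these 4 the groups did not overlap, and edgeR's adjusted p was 0.220 to 0.233. Of the 14 LSK and stem cell markers 11 were also lower in both miR-99 KD libraries, beside 26.0% of all genes, and the median of the 14 was -1.07. Their part in the target values was not tested.

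Among 9 relatives and regulators of Txnip, 8 were tested and Mlxipl was too low. Of these 8, 4 lay lower in both miR-99 KD libraries and 1 higher, beside 26.0% and 24.5% of all genes, with a median of -0.37. The median was -0.20 without miR-99 KD 2. Without miR-99 KD 1 edgeR called a gene of the list, as it called genes over all genes. The lowest p was that of Slc2a1, the glucose transporter whose uptake Txnip restrains, with means of 26.6 ± 5.01 CPM in Scr and 15.9 ± 1.53 in the knockdown (SD, n = 2) and an edgeR adjusted p of 0.260. Arrdc1, an arrestin-like relative of Txnip, stood at 118 and 135 and then 104 and 93.6 CPM. Mlxip, the sugar-sensing transcription factor MondoA that drives Txnip, stood at 77.8 and 88.7 and then 55.2 and 70.8, and its partner Mlx at 48.5 and 51.0 and then 77.8 and 53.5.

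Of 7 genes of the enzyme that makes superoxide, the 4 of lowest edgeR p were highest in miR-99 KD 1. Rac1, another of the 7, was not, at 508 and 448 CPM in the Scr mice and 509 and 518 in the knockdown mice. Cybb, the catalytic subunit of the phagocyte oxidase, stood at 133 and 69.1 CPM in the Scr mice, with 529 in miR-99 KD 1 against 88.3 in the other knockdown mouse. Ncf1 stood at 70.8 and 74.3, 261 and 34.5, Cyba at 130 and 85.6, 251 and 75.4, and Ncf4 at 50.5 and 38.2, 113 and 25.9. The 7 genes had a median log2 difference of 0.60, which was -0.52 without miR-99 KD 1, the library with the most neutrophil marker RNA. With the filter on low counts and all 4 libraries neither edgeR nor DESeq2 called any of the 7. Without the filter edgeR called 1064 of all genes with a count, of which there were at least 23052. Of the 7 it called 1, Cybb, at an adjusted p of 0.000468. The number it called also changed with which knockdown library was left out.

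**Figure D4:**
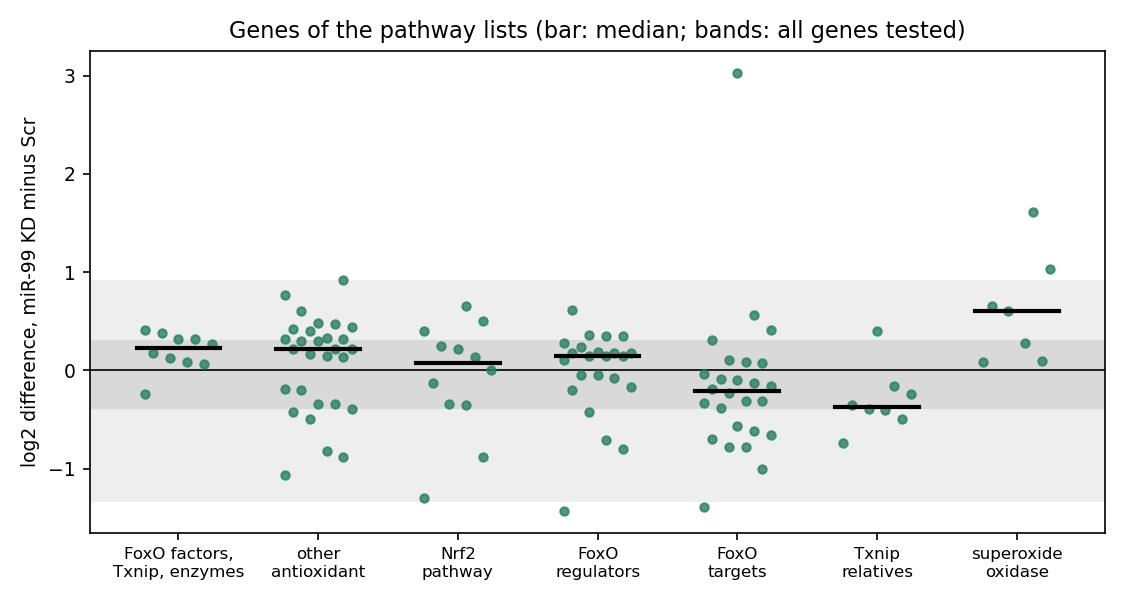
Log2 difference between miR-99 KD and Scr (points, 1 per gene tested; black bars, medians) for the 10 genes and the lists around them, over bands that mark the 5th to 95th and 25th to 75th percentiles of all genes tested. The median of the 10 genes is 0.23, that of the FoxO targets -0.21 and that of the oxidase genes 0.60.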

How the data were processed

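RNA-seq libraries of sorted GFP+ LSK cells, 2 per group, were read from the deposited tables of raw counts per Ensembl gene. The submitters' processing notes name the tools STAR, Picard, HTSeq and DESeq2 and the build mm9. The sources used here give no versions, gene annotation or strand setting. Rows that name no gene were left out of library sizes. They held 8.31% to 13.8% of reads in no gene. Symbols for 44585 of 45232 gene rows, transcript lengths and untranslated regions came from GENCODE M21 (GRCm38), a later build than mm9, from which no coordinates were mixed.

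From these counts, edgeR 4.0.16 in R 4.3.3 kept genes by filterByExpr, scaled by TMM and fitted its quasi-likelihood model of miR-99 KD against Scr, with Benjamini-Hochberg adjustment over all genes tested at 0.05. Standard errors and 95% intervals come from that fit. DESeq2 1.42.0 on the same genes and limma 3.58.1 (voom) were alternatives, with other scalings and filters, the replicate number as a block, and each library left out. The fits were checked on simulated data, in which fold changes and intervals were recovered. At 2 libraries a group the share of unchanged genes among simulated calls was above the threshold for edgeR and further above it for DESeq2. Few genes were changed there, each by more than any fitted difference of the 10 genes, and cell mixture was not varied. The share in the real calls is thus unknown, and those of DESeq2 need caution. Named pathway genes were, by rule, up to 4 of lowest edgeR p in each list. Others were chosen after their values were seen: Keap1, Hmox1, Junb, Il7r, Rac1 and the genes sharing sequence with the 10. The 10 genes and the lists were chosen with earlier results of these data known, and lists share some genes. Their counts beside the share of all genes are therefore descriptions and not independent evidence.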

Additional observations from a re-analysis of the deposited data

How the results depend on the processing

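The number of genes called over all genes was 0 by edgeR, 896 by DESeq2 and 1064 without the filter on low counts, and 0 to 1013 with a library left out. The median of the 10 genes stayed above 0, at 0.14 to 0.24 over the other settings and 0.08 to 0.36 with a library left out. The count of the 10 with both miR-99 KD libraries higher was 2 with library totals only and 4 to 9 with a library left out, where 68.2% to 81% of all genes do not overlap, and the count lower was 0 to 3. Prdx1 had -0.03 with library totals only. With a library left out, the log2 difference was -0.21 to 0.40 for Txnip, -0.02 to 0.24 for Cat, -0.13 to 0.22 for Prdx1, -0.19 to 2.39 for Cybb, -1.08 to 1.85 for Ncf1, -0.52 to 1.22 for Cyba and -0.78 to 1.35 for Ncf4; the cause was not tested. Without the filter the median of all genes was -0.11. With the replicate block edgeR called 0 genes, the median of the 10 was 0.23 and the adjusted p of Prdx2 0.409. The labels number the libraries but state no pairing, and mice were not treated as paired. The deviations of same-numbered libraries from their group means correlated at 0.057. With 2 libraries a group this is a single value whose sign depends on the numbering, so it cannot decide pairing. Numbers noted beside some of the deposited counts also differ from the labels. A library left alone in its group was assumed to vary like the other group. Foxo4 had no value at the filter of 10 CPM. The lengths of coding transcripts and DESeq2 without each library were added after seeing the data.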
